A study of Homo sapiens with 10 samples.

Results

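The mRNAs of 9 genes of MHC class I antigen presentation were followed in MDA-MB-231 cells under dasatinib, namely *HLA-B*, *HLA-C*, *HLA-E*, *HLA-F*, *B2M*, *TAP1*, *TAP2*, *PSMB8* and *PSMB9*. They were taken by gene symbol from a table of 36687 genes, and all 9 were among the 15727 genes that passed a filter on low counts. MDA-MB-231 is an established triple-negative breast adenocarcinoma line of the basal B type, labelled WT in genotype, and dasatinib blocks kinases of the SRC family. The 10 RNA-seq libraries are 2 biological replicates at each of 5 times, untreated (0 h) and after 6, 12, 24 or 48 h with the drug at 100 nM. The labels give no dose and this one stands in a figure legend of the study, and the 0 h samples are titled Sham although their treatment field names the drug. No untreated cells were collected at the later times, so a difference from 0 h includes the time in culture. All cells came from 1 line. In bulk RNA, fewer cells with an mRNA and less of it per cell cannot be told apart. Whether the replicates were separate cultures is not stated beyond their label, and p-values measure the spread between these samples only.

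Totals ranged between 40942913 and 49133774 gene counts per library. Replicate 1 at 12 h stood apart, since its log2 CPM (TMM-scaled counts relative to library size) correlated with those of any other library by at most 0.955, against 0.983 to 0.987 for the other 9. In it 8 of the 9 genes were lower than in 12 h replicate 2, by a median of 1.00 on the log2 scale, and 5 of the 9 differed by over 1 log2 unit, as did 20.4% of all genes tested. The 9 genes took 0.0390% of its counts, against 0.0681% to 0.120% in the other libraries. Both 12 h libraries were kept. Since the 5 groups shared 1 estimate of the spread, the gap between these 2 libraries widened the error of every comparison, and without 12 h replicate 1 more genes were called in most comparisons, as given below. At 0 h all 9 genes were lower in replicate 1 than in replicate 2 as well, by a median of 0.43 log2 units. Of 18 white blood cell markers, 4 (among them *CD3E*, *MS4A1* and *FCGR3A*) had 0 counts in every library and 17 stayed under 1 CPM in every library. Their summed level was 1.59 to 6.64 TPM (transcript abundance corrected for length and library size), against 3106 to 4271 TPM for 10 markers of this line such as *VIM* and *CD44*. *CD14* was the exception, with 104 and 62 counts at 48 h against 6 and 21 counts at 0 h, and its part in the results was not tested.

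MHC class I molecules display short peptides from a cell's own proteins to CD8+ T cells, so that a cell making foreign or mutant proteins can be recognised. Peptides are cut by the proteasome, in which the inducible subunits of the immunoproteasome can replace the constitutive ones, carried into the endoplasmic reticulum by the TAP transporter, trimmed, and loaded onto a heavy chain paired with beta-2-microglobulin. Genes of this pathway are known for rising together after interferon, through IRF, STAT and NF-kappaB factors and the coactivator NLRC5, and for being lowered in many tumours.

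Over the 5 times *HLA-B*, *B2M*, *TAP1* and *TAP2* differed and the other 5 did not pass the test. The joint edgeR test of any difference among the times gave adjusted p-values of 0.0206 for *HLA-B*, 0.0337 for *B2M*, 0.0163 for *TAP1* and 0.0381 for *TAP2*, and between 0.245 and 0.625 for the rest. These 4 of 9 stand against 33.7% of all genes tested. That share was lower in every fit that left out a library of 0, 6, 24 or 48 h, so calls were lost over all genes as well. Fewer of the 9 passed in each of those fits too, and none of the 4 kept its call in all of them. Without either 12 h library more of the 9 passed, as did a larger share of all genes. Every such fit leaves a group with 1 library, so the numbers called are not given.

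The promoters of these 4 genes are shown because their mRNAs took different courses. They are the 250 bases before the RefSeq start site in GRCh38.p14, the first of 2 for *TAP1*, on the strand of the gene. Capitals mark matches, on either strand, to AANNGAAA (the core bound by interferon regulatory factors), to GGGNNTTCC or GGNNTTTCC (NF-kappaB type sites), to TTCNNNGAA (the gamma-activated site type, with no match in these 4 windows) and to CCAAT. The windows are chr6:31357180-31357429 for *HLA-B*, chr15:44711267-44711516 for *B2M*, chr6:32853705-32853954 for *TAP1* and chr6:32838740-32838989 for *TAP2*, all on the minus strand except *B2M* on the plus strand.
HLA-B: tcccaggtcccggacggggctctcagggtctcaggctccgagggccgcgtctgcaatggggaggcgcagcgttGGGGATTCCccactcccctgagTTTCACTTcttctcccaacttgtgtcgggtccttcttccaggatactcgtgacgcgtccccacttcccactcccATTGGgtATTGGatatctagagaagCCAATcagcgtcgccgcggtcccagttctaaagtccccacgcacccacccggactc
B2M: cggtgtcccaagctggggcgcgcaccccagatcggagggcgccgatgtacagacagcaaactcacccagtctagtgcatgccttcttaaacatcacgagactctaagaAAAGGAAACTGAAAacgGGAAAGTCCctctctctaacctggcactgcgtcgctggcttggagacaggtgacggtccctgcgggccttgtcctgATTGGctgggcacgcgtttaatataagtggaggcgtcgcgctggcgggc
TAP1: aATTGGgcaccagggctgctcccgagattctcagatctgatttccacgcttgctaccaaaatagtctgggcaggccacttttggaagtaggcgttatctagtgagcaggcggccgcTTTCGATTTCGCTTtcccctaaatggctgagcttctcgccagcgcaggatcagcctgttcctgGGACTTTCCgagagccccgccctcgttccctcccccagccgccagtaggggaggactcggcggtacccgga
TAP2: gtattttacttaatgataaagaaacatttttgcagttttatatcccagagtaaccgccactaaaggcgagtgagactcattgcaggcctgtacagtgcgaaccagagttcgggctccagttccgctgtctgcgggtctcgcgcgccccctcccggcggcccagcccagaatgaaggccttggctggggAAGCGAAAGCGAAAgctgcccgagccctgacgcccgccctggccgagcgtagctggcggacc

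AANNGAAA was found in all 4 windows, once in *HLA-B* (bases 155 to 148 before the start) and as a pair overlapping by 2 bases in *B2M*, *TAP1* and *TAP2*. An NF-kappaB type match lay 177 to 169 bases before the start of *HLA-B*, 125 to 117 before *B2M* and 71 to 63 before *TAP1*, and none in the *TAP2* window. CCAAT matched 3 times in *HLA-B* and once each in *B2M* and *TAP1*. Of 35116 RefSeq promoter windows of this length, 20.3% held AANNGAAA, 5.78% GGGNNTTCC, 5.48% GGNNTTTCC, 6.57% TTCNNNGAA and 32.0% CCAAT. *HLA-C* and *HLA-F* also had an AANNGAAA match, and *PSMB9* and both start sites of *PSMB8* had none. The window of the other *TAP1* start site, not shown, held no AANNGAAA and 1 TTCNNNGAA match, 189 to 181 bases before it. At 48 h against 0 h the change of *TAP2* was opposite in sign to those of *HLA-B*, *B2M* and *TAP1*. Its window shared the AANNGAAA letters with theirs, and was the only 1 of the 4 with no NF-kappaB type and no CCAAT match. That lack was not particular to *TAP2*. The windows of the other *TAP1* start site and of the first *PSMB8* start site held neither, and those of *HLA-C*, *HLA-F* and *PSMB9* held no NF-kappaB type match. Whether any of these letters bear on the mRNAs was not tested. The motifs were chosen with the sequences in view, a match in letters is no evidence of binding, and 8 of the 9 genes were in the promoter table (all but *HLA-E*).

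**Figure D1:**
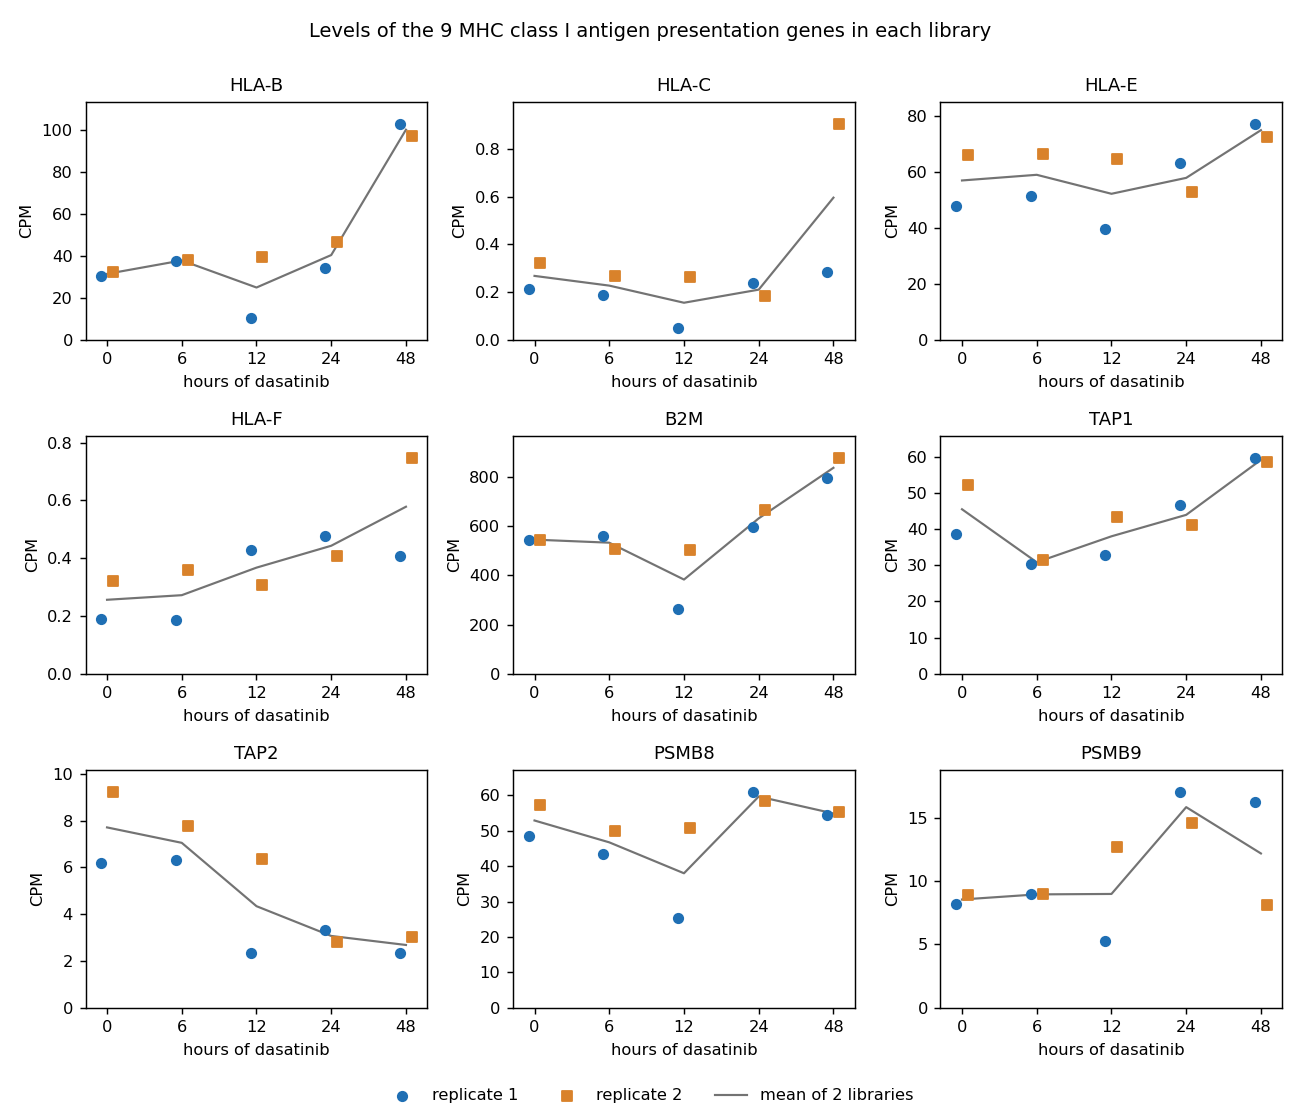
CPM (vertical axes, linear and from 0) of each of the 9 genes by hours of dasatinib (horizontal axes), with 1 point per library and a line through the mean of the 2 libraries. *HLA-B* and *B2M* were highest and *TAP2* low at 48 h, and the lowest *HLA-B* point, 10.4 CPM, is 12 h replicate 1.

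*HLA-B* rose at 48 h. It encodes a classical heavy chain, the polymorphic part of the complex that holds the peptide (chr6:31353872-31367067, minus strand, GENCODE on GRCh38, 8 exons in its canonical transcript). It had 30.4 and 32.3 CPM at 0 h, 37.5 and 38.0 CPM at 6 h, 10.4 and 39.3 CPM at 12 h, 34.0 and 46.6 CPM at 24 h, and 103 and 97.1 CPM at 48 h. Both 48 h libraries lay above all 8 others, while the 12 h pair straddled the 0 h values. The change at 48 h against 0 h was 1.67 log2 units (3.19-fold, standard error 0.440, edgeR adjusted p = 0.0154), and at 48 h against 6 h it was 1.41 (standard error 0.437, adjusted p = 0.0315). At 48 h against 24 h the difference was 1.31 (standard error 0.435), with an adjusted p of 0.159, and it was called without either 12 h library, with no filter and with the 2 groups alone. The call at 48 h against 0 h was lost without 0 h replicate 1 (adjusted p = 0.105), 0 h replicate 2 (0.0880), 48 h replicate 1 (0.0764) or 48 h replicate 2 (0.0645), with values between 1.63 and 1.72. The call at 48 h against 6 h was lost without any of the 8 libraries outside 12 h, at adjusted p-values of 0.0524 to 0.146.

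*HLA-E*, whose product presents leader peptides of other class I chains to natural killer cells (chr6:30489509-30494194, plus strand), moved little. It had 77.2 and 72.6 CPM at 48 h against 47.9 and 65.9 CPM at 0 h. The groups did not overlap, but the difference of 0.40 log2 units (standard error 0.234) did not pass (edgeR adjusted p = 0.227). It passed without 12 h replicate 1 (0.39, adjusted p = 0.0440) and without 12 h replicate 2 (adjusted p = 0.0401). At 6, 12 and 24 h its differences from 0 h lay between −0.13 and 0.05.

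*HLA-C*, the other classical chain in the set, and *HLA-F*, a nonclassical one, were near the limit of detection. *HLA-C* (chr6:31268749-31272130, minus strand) had 9 and 14 counts at 0 h, 8 and 12 counts at 6 h, 2 and 12 counts at 12 h, 12 and 8 counts at 24 h, and 14 and 40 counts at 48 h. *HLA-F* (chr6:29722775-29738528, plus strand) had 8 and 14 counts at 0 h, 8 and 16 counts at 6 h, 18 and 14 counts at 12 h, 24 and 18 counts at 24 h, and 20 and 33 counts at 48 h. *HLA-C* at 48 h overlapped 0 h, while both 48 h counts of *HLA-F* were above both at 0 h. At 48 h against 0 h the differences were 1.14 (standard error 0.966, edgeR adjusted p = 0.404) for *HLA-C* and 1.16 (standard error 0.783, adjusted p = 0.290) for *HLA-F*, and no change of that size was detectable at these counts. No source used here says how reads of this polymorphic family of similar genes were assigned, so that the low level of *HLA-C* beside *HLA-B* is uncertain, as is the level of *HLA-F*. In GENCODE 28.0% of the exon bases of *HLA-F* are shared with other genes, among them the antisense gene *HLA-F-AS1*. For *HLA-B* it is 47.3%, shared with the same-strand genes *DHFRP2* and *MIR6891* and the opposite-strand genes ENSG00000271581 and ENSG00000285647 together. Yet 0% of the 100-base stretches of its canonical transcript occur in another gene. For *PSMB8*, *TAP1* and *PSMB9* the share of exon bases is 17.3%, 14.2% and 5.21%.

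Summed over the 4 heavy chain genes, the TPM was 211 and 208 at 48 h against 88.8 and 113 at 0 h. The summed counts rose by 0.99 log2 units (standard error 0.266, edgeR adjusted p = 0.0173). *HLA-B* and *HLA-E* made up 99.1% to 99.7% of these TPM in every library. The call for the sum was lost without 0 h replicate 1 (adjusted p = 0.138), 0 h replicate 2 (0.0524), 48 h replicate 1 (0.0914) or 48 h replicate 2 (0.0715).

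*B2M*, the invariant light chain without which heavy chains do not reach the surface (chr15:44711358-44718851, plus strand, 4 exons), was the most abundant of the 9 mRNAs per length. It had 545 and 546 CPM at 0 h, 559 and 507 CPM at 6 h, 263 and 502 CPM at 12 h, 597 and 667 CPM at 24 h, and 796 and 879 CPM at 48 h. Both 48 h libraries were above all others, both 24 h libraries were above both 0 h libraries, and 12 h replicate 1 was the lowest. The difference at 48 h against 0 h was 0.62 log2 units (1.54-fold, standard error 0.238), with an adjusted p of 0.0716 from edgeR, and at 48 h against 6 h it was 0.65 (standard error 0.238, adjusted p = 0.0587). The call at 48 h against 6 h was gained with DESeq2 (0.67, adjusted p = 0.0156), without 12 h replicate 1 (adjusted p = 1.24e-07) or replicate 2 (adjusted p = 1.22e-07), and in 6 further alternatives, but not in the fits that left out a library of another time. *B2M* passed at 48 h against 0 h without 12 h replicate 1 (0.62, adjusted p = 2.96e-07) or replicate 2 (adjusted p = 2.93e-07), and also with DESeq2 (0.64, adjusted p = 0.0232). At 24 h against 0 h the difference was 0.21 (adjusted p = 0.596), which passed without 12 h replicate 1 (adjusted p = 0.0303) or replicate 2 (adjusted p = 0.0297).

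The 2 subunits of the peptide transporter went apart. *TAP1* (chr6:32845209-32853816, minus strand, 11 exons) had 38.6 and 52.2 CPM at 0 h, 30.2 and 31.4 CPM at 6 h, 32.7 and 43.3 CPM at 12 h, 46.6 and 41.2 CPM at 24 h, and 59.7 and 58.5 CPM at 48 h. Both 6 h libraries lay below both 0 h libraries and both 48 h libraries above all others, with a wide pair at 0 h. At 48 h against 6 h *TAP1* rose by 0.94 log2 units (1.92-fold, standard error 0.175, edgeR adjusted p = 0.00240), a call kept without each of the 10 libraries in turn. Neither 6 h against 0 h (−0.56, standard error 0.175, adjusted p = 0.142) nor 48 h against 0 h (0.38, standard error 0.174, adjusted p = 0.124) passed. At 12 and 24 h its differences from 0 h were −0.26 and −0.05. Without 12 h replicate 1 the changes at 6 and 48 h passed, with adjusted p-values of 0.000816 and 0.00563, and without 12 h replicate 2 with 0.000874 and 0.00590.

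*TAP2* (chr6:32821833-32838739, minus strand, 12 exons) fell. It had 6.18 and 9.24 CPM at 0 h, 6.32 and 7.79 CPM at 6 h, 2.33 and 6.35 CPM at 12 h, 3.34 and 2.80 CPM at 24 h, and 2.35 and 3.02 CPM at 48 h. The 4 libraries of 24 and 48 h lay below all of 0 and 6 h. The change was −1.33 log2 units at 24 h against 0 h (standard error 0.410, edgeR adjusted p = 0.0457), −1.52 at 48 h against 0 h (standard error 0.414, adjusted p = 0.0178) and −1.40 at 48 h against 6 h (standard error 0.413, adjusted p = 0.0255). These rest on 115 to 403 counts in each library compared. The 48 h call against 0 h was lost without 0 h replicate 2 (−1.21, adjusted p = 0.127), 48 h replicate 1 (−1.35, adjusted p = 0.131) or 48 h replicate 2 (−1.71, adjusted p = 0.0710). The call at 48 h against 6 h was lost without 6 h replicate 1 (adjusted p = 0.0670), 6 h replicate 2 (0.136), 48 h replicate 1 (0.160) or 48 h replicate 2 (0.0891). The 24 h call was lost without any of the 8 libraries outside 12 h, at adjusted p-values of 0.0753 to 0.257. In GENCODE, 34.7% of the 100-base stretches of the canonical *TAP2* transcript also occur in a readthrough gene on the same strand (ENSG00000250264), and whether the authors' annotation holds that gene is not stated, so reads could have been split between them.

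**Figure D2:**
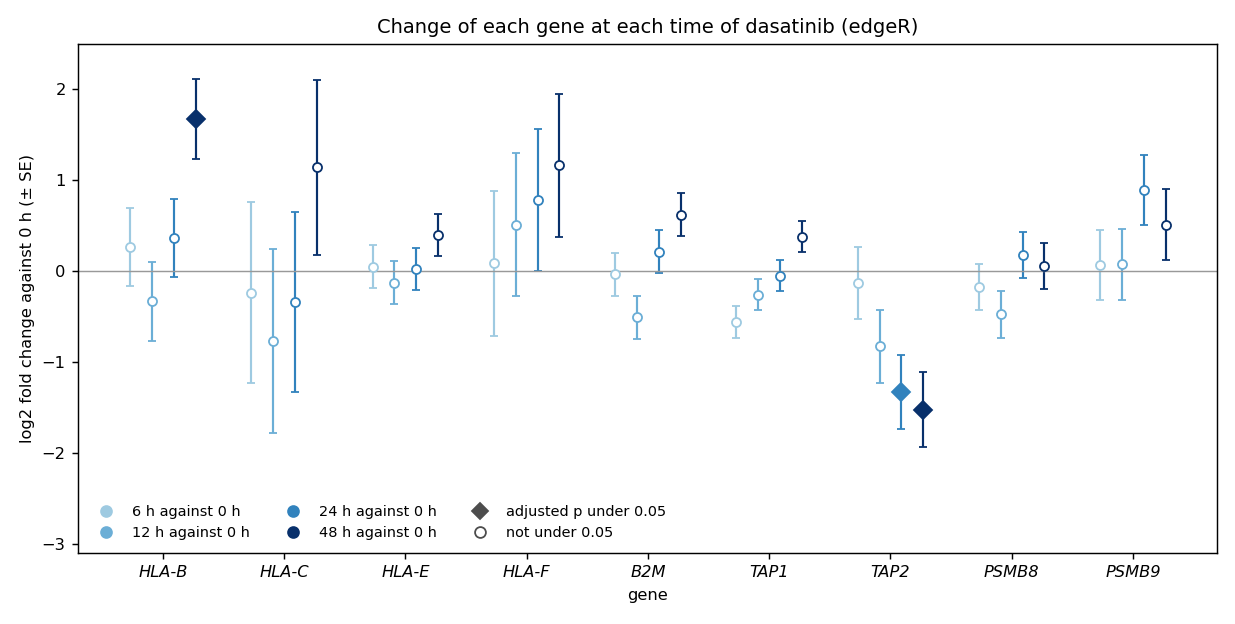
Log2 fold change against 0 h (vertical axis, bars are ± 1 standard error from edgeR) of each gene (horizontal axis) at 6, 12, 24 and 48 h, with filled diamonds where the adjusted p was under 0.05. The filled points are *HLA-B* at 48 h and *TAP2* at 24 and 48 h, and the widest bars are those of *HLA-C* and *HLA-F*.

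*PSMB8* and *PSMB9* encode the inducible catalytic subunits beta5i and beta1i of the immunoproteasome. *PSMB8* (chr6:32840717-32844679, minus strand, 6 exons) had 54.4 and 55.4 CPM at 48 h against 48.5 and 57.3 CPM at 0 h, with the 48 h pair inside the 0 h pair (0.05, standard error 0.253, edgeR adjusted p = 0.898). It was highest at 24 h, at 61.0 and 58.3 CPM, above both 0 h libraries by 0.17 log2 units (adjusted p = 0.694). It had 43.4 and 50.1 CPM at 6 h (−0.18, adjusted p = 0.815), and 25.3 and 50.7 CPM at 12 h (−0.48, adjusted p = 0.279). At 48 h against 6 h it differed by 0.23 (adjusted p = 0.527), which passed without 12 h replicate 1 (adjusted p = 0.0466) or replicate 2 (adjusted p = 0.0485).

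*PSMB9* (chr6:32844136-32859851, plus strand, 6 exons) was even between libraries until 6 h and spread later. It had 8.21 and 8.90 CPM at 0 h, 8.96 and 8.95 CPM at 6 h, 5.28 and 12.7 CPM at 12 h, 17.1 and 14.6 CPM at 24 h, and 16.3 and 8.10 CPM at 48 h. Both 24 h libraries were above all others but 48 h replicate 1, and 48 h replicate 2 was below both 0 h libraries. The difference at 24 h against 0 h was 0.89 log2 units (1.85-fold, standard error 0.387), with an unadjusted p of 0.0439 and an adjusted p of 0.141 from edgeR. It passed without 12 h replicate 1 (adjusted p = 0.00424), and without 12 h replicate 2 (adjusted p = 0.00347). At 48 h it was 0.51 (standard error 0.387, adjusted p = 0.347). *PSMB9* and *TAP1* are read in opposite directions from RefSeq start sites 487 bases apart. Over the 10 libraries their log2 CPM had a Pearson r of 0.45, and *PSMB8* with *PSMB9* 0.74, where all libraries share 1 course of treatment.

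Against 0 h, edgeR called 0 of the 9 genes at 6 h (2.73% of all genes tested were called) and 0 at 12 h (7.15% of all). It called 1 at 24 h (20.0% of all) and 2 at 48 h (32.3% of all), 1 higher and 1 lower. Counts at an unadjusted p under 0.05 are not given, since no share over all genes was computed for them. At these times in turn DESeq2 called 0, 0, 1 and 3 of the 9, against 7%, 13.7%, 25.1% and 36.6% of all genes it tested. Against the preceding time, edgeR called 0 at 12 h (0.725% of all), 24 h (7.58% of all) and 48 h (3.18% of all). In these comparisons DESeq2 called 0, 1 (*B2M* at 24 h against 12 h) and 0, against 10.2%, 15.5% and 8.44% of all genes it tested. At 48 h against 6 h 3 were called (33.2% of all), *HLA-B* and *TAP1* higher and *TAP2* lower. The shares of called genes among the 9 were near or below those of all genes. Treated and 0 h libraries did not overlap for 3 of the 9 at 6 h (58.1% of all genes) and for 6 at 48 h (75.0% of all), and 48 h and 6 h libraries did not for 8 (76.0% of all).

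The error from 12 h bore on these counts. Without 12 h replicate 1, 5 of the 9 were called at 48 h against 0 h, *HLA-B*, *HLA-E*, *B2M* and *TAP1* higher and *TAP2* lower, while the share over all genes rose to 53.4%. At 24 h there were then 4, *HLA-B*, *B2M* and *PSMB9* higher and *TAP2* lower (42.5% of all genes), and at 6 h 1, *TAP1* lower (20.4% of all genes). Without 12 h replicate 2, which leaves the library that stood apart alone at 12 h, 6 of the 9 were called at 12 h against 0 h, all lower (47.8% of all genes). At 48 h against 24 h *HLA-B*, *B2M* and *TAP1* were called without 12 h replicate 1 (22.4% of all genes), and at 48 h against 6 h 5 of the 9 were (53.4% of all genes). The median change of the 9 at 48 h was 0.51 log2 units, against 0.01 over all genes tested, and at 12 h it was −0.33 against 0.0007. That median covers *HLA-C* and *HLA-F*, which had at most 40 counts.

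The order of the levels per length, in TPM, differed between 48 h and 0 h for 1 gene. At 0 h it was *B2M* (306), *HLA-E* (65.5), *PSMB8* (52.0), *HLA-B* (35.1), *TAP1* (32.4), *PSMB9* (8.76), *TAP2* (4.13), *HLA-C* (0.354) and *HLA-F* (0.202). The ranges of *HLA-E* and *PSMB8* overlapped, as did those of *HLA-B* and *TAP1*. At 48 h *HLA-B* came second at 118 ± 1.37 TPM, against 35.1 ± 1.89 TPM at 0 h (SD, n = 2 each), followed by *HLA-E* (90.5 TPM), and the order of the others stayed. The 48 h ranges of neighbours overlapped only for *HLA-C* and *HLA-F*. Between these times *HLA-F* averaged above *HLA-C* at 12 h, with overlap, and at 24 h, with 0.351 to 0.390 TPM for *HLA-F* and 0.262 to 0.327 TPM for *HLA-C*.

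The balance between subunits shifted with these changes. *HLA-B* made up 56.3% and 56.1% of the TPM of the 4 heavy chains at 48 h, against 38.0% and 32.1% at 0 h, while 12 h replicate 1 was lowest at 20.3%. *B2M* per heavy chain TPM was 2.18 and 2.54 at 48 h against 3.42 and 2.72 at 0 h, and all 10 libraries lay between 2.18 and 3.42. *TAP1* per *TAP2* TPM was 33.8 and 25.8 at 48 h against 8.31 and 7.51 at 0 h, and all libraries of 24 and 48 h exceeded all of 0 and 6 h. With 2 libraries against 2 a two-sided exact permutation test cannot go below p = 0.333, so these ratios are given as values.

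**Figure D3:**
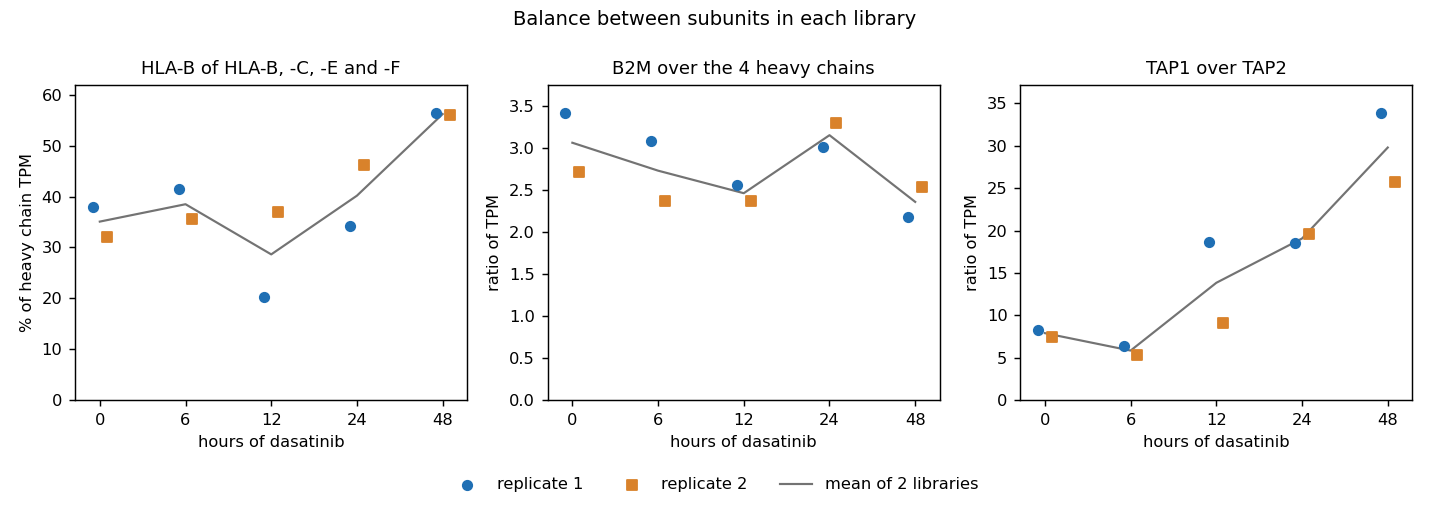
For each library (points) and the mean of 2 (line) by hours of dasatinib, the share of *HLA-B* in the TPM of the 4 heavy chains (left, percent), the *B2M* TPM per heavy chain TPM (middle) and the *TAP1* TPM per *TAP2* TPM (right), all from 0. The *TAP1* to *TAP2* ratio was 33.8 and 25.8 at 48 h, and 12 h replicate 1 at 18.6 lay above 12 h replicate 2 at 9.05.

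Each inducible catalytic subunit was also set against the constitutive one whose place it takes. *PSMB8* made up 15.4% ± 1.16 of the TPM of *PSMB8* plus *PSMB5* at 48 h, against 10.3% ± 0.627 at 0 h (SD, n = 2 each). *PSMB9* made up 5.07% ± 2.41 of *PSMB9* plus *PSMB6* at 48 h, against 2.47% ± 0.0117 at 0 h, and *PSMB10*, the gene of beta2i, 4.35% ± 0.495 of *PSMB10* plus *PSMB7*, against 1.81% ± 0.262. All 3 shares were above the 0 h values in both 48 h libraries. The constitutive partners were lower at 48 h. *PSMB7* fell, with 135 and 127 CPM at 48 h against 225 and 246 CPM at 0 h (−0.85, standard error 0.107, edgeR adjusted p = 0.000234). *PSMB6* fell too, with 97.3 and 101 CPM against 140 and 153 CPM (−0.57, standard error 0.155, adjusted p = 0.0183), while *PSMB5*, with 141 and 127 CPM against 180 and 234 CPM, did not pass (−0.63, adjusted p = 0.188). Without 12 h replicate 1 more of the 3 were called lower, as more of all genes were called. *PSMB10* was higher at 24 h (1.13, standard error 0.339, adjusted p = 0.0406) and not at 48 h (0.44, adjusted p = 0.355), at 142 to 427 counts per library.

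**Figure D4:**
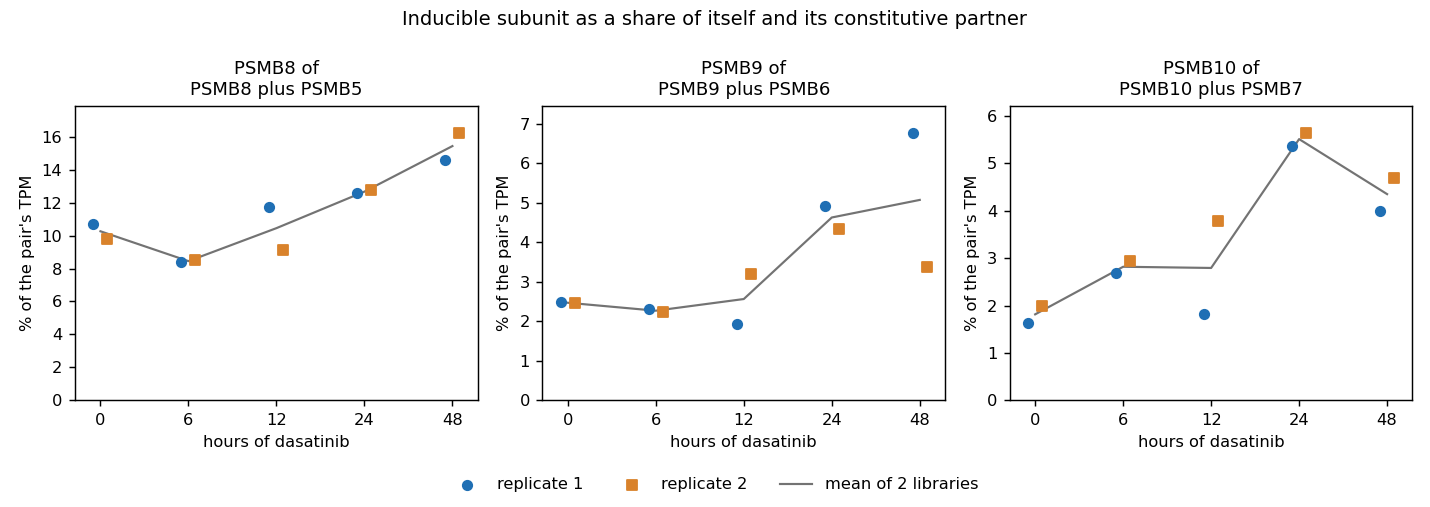
Inducible subunit as a percentage of the TPM of itself and its constitutive partner (vertical axes, from 0) by hours of dasatinib, with 1 point per library and a line through the mean of 2. At 48 h the shares averaged 15.4% for *PSMB8*, 5.07% for *PSMB9* and 4.35% for *PSMB10*, and the 2 *PSMB9* points at 48 h, 6.77% and 3.37%, lie far apart.

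The wider proteasome fell at 48 h. Of 11 other genes of its core particle 0 were higher and 8 lower, among them *PSMB3* (−1.02), *PSMA7* (−1.03) and *PSMB2* (124 and 110 CPM at 48 h against 247 and 221 CPM at 0 h), all subunits of its rings. Of 20 genes of its caps 0 were higher and 18 lower, for example *PSMD2* (−1.15) and *PSMD11* (−0.83), subunits of the regulatory particle, and *PSME3* (−0.87), the nuclear activator. These stand against 32.3% of all genes called in either direction, and the median changes were −0.63 and −0.69. Of 4 further immunoproteasome parts (*PSMB10*, *PSME1*, *PSME2* and *POMP*) only *POMP*, the assembly chaperone, passed, with 95.2 and 98.3 CPM at 48 h against 165 and 161 CPM at 0 h (−0.75, standard error 0.134, edgeR adjusted p = 0.00189). That is 25% of the 4, against 32.3% of all genes. Without 12 h replicate 1 more of the 4 were called, as were more of all genes.

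In the peptide loading complex and the trimming of peptides, 4 of 17 genes were higher and 1 lower at 48 h (29.4%, against 32.3% of all genes), with a median change of 0.33. Leaving out 12 h replicate 1 gave 9 higher and 2 lower (53.4% of all genes). *TAPBP* encodes tapasin, which bridges TAP and the empty heavy chain. It had 67.9 and 62.4 CPM at 48 h against 33.1 and 32.1 CPM at 0 h (1.00, standard error 0.168, edgeR adjusted p = 0.00132), and it also passed at 12 h (0.72) and 24 h (0.66). *ERAP1*, the aminopeptidase that trims peptides in the endoplasmic reticulum, had 74.2 and 79.9 CPM against 51.0 and 49.6 CPM (0.62, standard error 0.136, adjusted p = 0.00634). Its relative *ERAP2* had 20.8 and 23.4 CPM against 14.8 and 13.5 CPM and did not pass (0.64, adjusted p = 0.170). The cytosolic aminopeptidase gene *NPEPPS* rose by 0.57, and *THOP1*, a cytosolic peptidase known to destroy class I peptides, fell by 0.95 on the log2 scale.

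Among regulators of class I genes, 7 of 25 were higher and 6 lower at 48 h (52% against 32.3% of all genes), with a median change of 0.22. *NLRC5*, the coactivator of class I promoters, had 41.9 and 40.3 CPM at 48 h against 30.2 and 28.0 CPM at 0 h (0.50, standard error 0.143, edgeR adjusted p = 0.0226). *STAT2*, which carries type I interferon signals to the nucleus, rose by 1.14 at 48 h and the NF-kappaB gene *RELB* by 1.30. *IRF1* did not pass (0.24, adjusted p = 0.299). *EZH2* (−1.34) and *EED* (−0.83), of the Polycomb complex that can silence class I genes, fell, as did the NF-kappaB gene *NFKB1* (−0.56).

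Genes that respond to interferon moved in both directions over the course. Of 42 tested in a list that holds none of the 9, 0 were higher and 22 lower at 6 h, 1 higher and 15 lower at 12 h, 6 higher and 1 lower at 24 h, and 32 higher and 0 lower at 48 h. These counts stand against 2.73%, 7.15%, 20.0% and 32.3% of all genes in either direction, and the median change of the list was −0.76 at 6 h and 0.81 at 48 h, with 0.01 over all genes at both times. At 48 h the smallest adjusted p-values were those of *GBP2*, a guanylate-binding protein (2.03), *OAS2*, a sensor of double-stranded RNA (1.40), and *IFI44L* (1.53). *OAS2* had 119 and 115 CPM at 0 h, 38.4 and 37.5 CPM at 6 h, 65.0 and 59.0 CPM at 12 h, 148 and 155 CPM at 24 h, and 318 and 299 CPM at 48 h. Its 6 h libraries were the lowest and its 48 h libraries the highest of the 10, as *TAP1* was on a smaller scale. Without 12 h replicate 1 the list had 1 gene higher and 34 lower at 6 h (20.4% of all genes), 2 higher and 29 lower at 12 h (17.8% of all), 21 higher and 2 lower at 24 h (42.5% of all), and 39 higher and 0 lower at 48 h (53.4% of all). Of 13 interferon receptors, kinases and brakes on the signal, 1 was higher at 48 h, the receptor gene *IFNGR1* (0.67), and 2 lower, *SOCS3* (−1.11) and the phosphatase gene *PTPN2* (−0.52). That is 23.1% against 32.3% of all genes, and without 12 h replicate 1 there were 4 higher and 4 lower (53.4% of all genes).

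**Figure D5:**
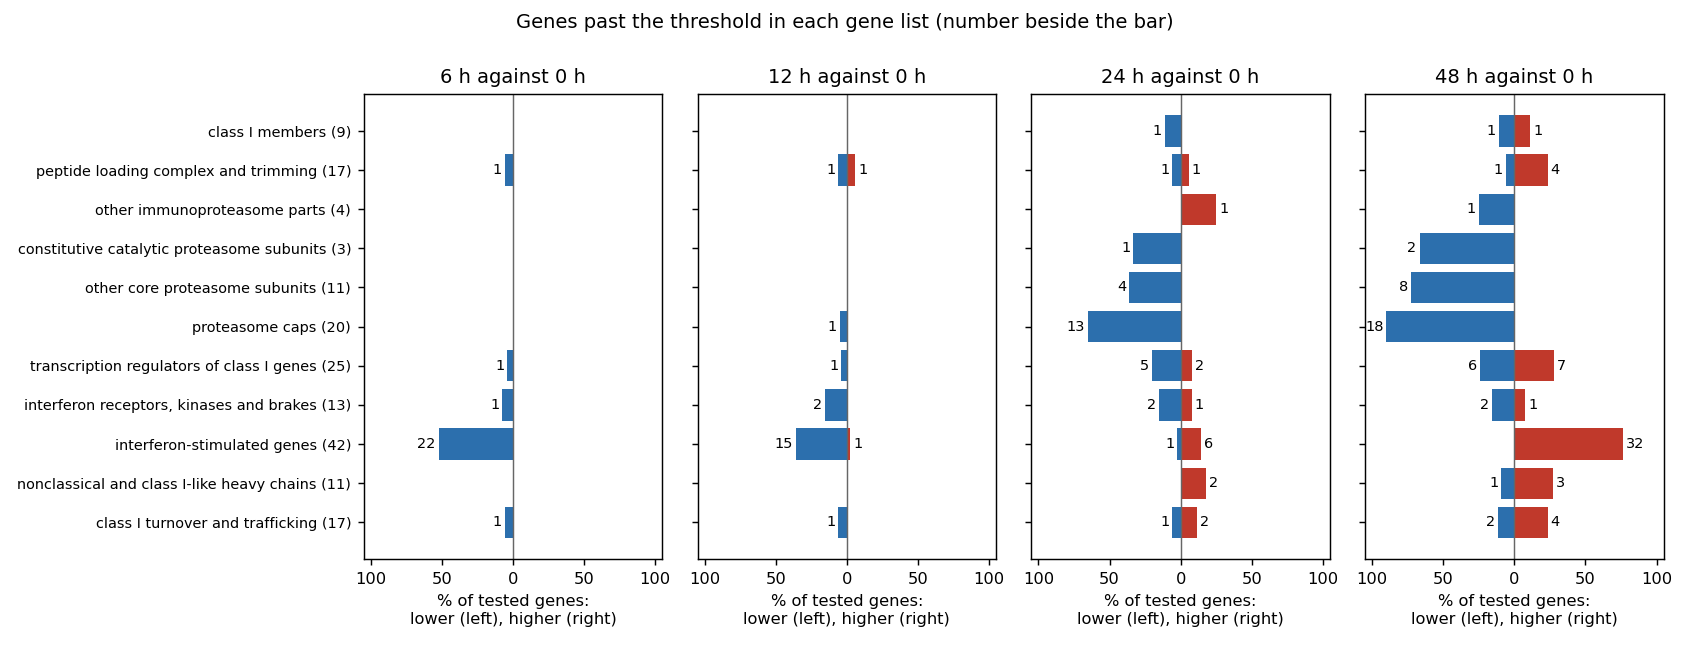
Share of the tested genes of each list (number tested in brackets) past the threshold at 6, 12, 24 and 48 h against 0 h, lower to the left and higher to the right on a scale of percent, with the number of genes beside each bar. Interferon-stimulated genes run to the left at 6 h (22 lower) and to the right at 48 h (32 higher), and the 20 genes of the proteasome caps run to the left at 48 h (18 lower).

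Other class I-like chains and the turnover of class I molecules were mixed. Of 11 class I-like genes tested 3 were higher at 48 h, *MR1*, which presents vitamin B metabolites (1.12), and the NKG2D ligand genes *RAET1G* (2.02) and *RAET1E* (1.00), and 1 was lower, *PROCR*, the endothelial protein C receptor (−0.68), which is 36.4% against 32.3% of all genes. Of 17 genes of turnover and trafficking, 4 were higher, among them *SEL1L* (0.99), *TMEM129* (0.60) and *TMEM127* (0.45), of which the first and second act in degradation from the endoplasmic reticulum, and 2 were lower (35.3%). Leaving out 12 h replicate 1 gave 4 higher and 4 lower of the class I-like genes and 7 higher and 2 lower of the turnover genes (53.4% of all genes). With all libraries kept, the lower ones were *VCP* (−0.40), the segregase that extracts proteins from the membrane, and *MARCHF4*, a membrane ubiquitin ligase known to remove class I molecules from the surface when overexpressed. *MARCHF4* had 40.5 and 37.3 CPM at 0 h, 13.6 and 15.7 CPM at 6 h, 10.2 and 9.33 CPM at 12 h, 7.22 and 6.45 CPM at 24 h, and 5.96 and 4.67 CPM at 48 h. All 8 treated libraries were below both 0 h libraries, and the change at 48 h was −2.87 (standard error 0.177, edgeR adjusted p = 5.56e-06). Of 14 genes of MHC class II presentation, only 4 passed the filter, and 1, the lysosomal protease gene *CTSS*, was higher at 48 h (1.60). Without 12 h replicate 1 more of the 4 were called, as were more of all genes. With all libraries kept, the class II call was 25% of the 4 tested, against 32.3% of all genes. *CIITA*, the class II transactivator, had 20 to 74 counts per library and did not pass (0.68, edgeR adjusted p = 0.435).

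The genes with the course most like each of the 9, by Pearson r of log2 CPM over the 10 libraries, were largely outside the pathway. They were *DAP*, *PHC2* and *LGMN* for *HLA-B* (r = 0.992, 0.981 and 0.981), *SPG21*, *CD9* and *ADM* for *B2M* (0.990, 0.990 and 0.988), *PDCD4*, *PRKCZ* and *CMTR1* for *TAP1* (0.979, 0.963 and 0.954) and *RPL17*, *TMCO1* and *RTCB* for *TAP2* (0.988, 0.981 and 0.979). For *HLA-E* they were *MOGS*, *RNF122* and *UBE2Z* (0.964, 0.963 and 0.961), for *PSMB8* *CFDP1* and *LSMEM1* (0.981 and 0.976) and for *PSMB9* *TMEM102*, *INHBE* and *C8orf82* (0.953, 0.946 and 0.929). For *HLA-C* and *HLA-F*, at their low counts, they were *MIR22HG*, *TMSB4X* and *CCDC181* (0.898, 0.898 and 0.893) and *CFAP54*, *SCN3A* and *PHEX* (0.937, 0.924 and 0.918). Of the 27 genes most alike, 3 for each of the 9, 6 were among the 3 most alike without 12 h replicate 1 and 5 were with Spearman's rho. Among the 9 themselves r was highest for *HLA-B* with *B2M* (0.95) and lowest for *TAP2* with *HLA-F* (−0.61), and *TAP1* with *TAP2* had −0.30.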

How the data were processed

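Total RNA of MDA-MB-231 cells was made into libraries with the NEBNext Ultra kit and sequenced as paired-end reads. Per the methods and the submitters' notes, the authors' reads were trimmed (Trim Galore), aligned to hg38 (STAR 2.5.2b) and assigned to genes (featureCounts). The authors deposited raw counts, which were tested here, and TPM, which correct for gene length and were used for levels between genes and for ratios. The step from counts to TPM, the annotation, the strand setting and the treatment of reads with several matches are not given in the sources used here, so that reads of overlapping, antisense or similar genes could not be separated.

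The tool was edgeR 4.0.16 (in R 4.3.3). Its filter on low counts kept 15727 of 36687 genes, which after TMM scaling entered 1 fit of the 5 times, with the robust quasi-likelihood test and Benjamini-Hochberg adjustment within each comparison over all genes tested, at a threshold of 0.05. The standard error is the log2 fold change divided by the square root of F, correlations used log2 CPM with a prior count of 2, and n is 2 libraries per group. The edgeR step was tried on simulated data, with changes at 48 h only and no library that stood apart. That trial cannot tell how the fit behaves with the gap between the 12 h libraries.

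The 9 genes, the 13 other lists, the motifs and the tests were chosen with earlier results of these data known. All 9 are described at every time, by level or by change. From each list the text names the 3 genes with the smallest adjusted p at 48 h in each direction, and always *PSMB5*, *PSMB6*, *PSMB7*, *PSMB10*, *TAPBP*, *ERAP1*, *ERAP2*, *NLRC5*, *IRF1* and *CIITA*. A few genes that these rules name are not reported here. The lists of cell markers served only as a check, and of the 10 line markers 1 was higher and 4 lower at 48 h. Without 12 h replicate 1 more of the 10 were called, as were more of all genes. With all libraries kept, the line marker calls were 50% of the 10, against 32.3% of all genes. The alternatives were no filter, DESeq2's size factors within edgeR, DESeq2 1.42.0, a replicate block, the compared groups alone, limma 3.58.1 on log2(TPM + 1) or log2(TPM + 0.1) for genes of at least 1 TPM in 2 libraries or for all genes, and each library left out in turn, where a group of 1 is assumed to vary like the others. The list counts without 12 h replicate 1 were added after the data were seen. Loci come from GENCODE on GRCh38 and promoters from RefSeq on GRCh38.p14, and both may differ from the authors' annotation.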

Additional observations from a re-analysis of the deposited data

How the results depend on the processing

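For 45 member values (9 genes in the 4 comparisons with 0 h and in 48 h against 6 h), 790 alternative values were computed. None of a called gene changed direction, 709 stayed on their side of the threshold, 34 fell below it, 47 passed it, and 23 changed sign in genes called in neither fit. With each library left out in turn, a group was left with 1 library. The number of the 9 called fell in some of these fits and rose in others, as did the share of all genes called. The ranges of these numbers are therefore not given. Across them the change of the heavy chain sum ranged from 0.83 to 1.16. With no filter 1 of the 9 was called at 6 h (3.97% of all genes), 3 at 12 h (10.2%) and 2 at 24 h (16.8%) against 0 h. In that fit 2 were called at 12 h against 6 h (9.69% of all genes) and 4 at 24 h against 12 h (10.4%). There were 1 at 48 h against 24 h (5.05% of all genes) and 7 for any difference (33.6%). With the 2 groups compared alone there were 1 at 6 h (19% of all genes), 4 at 24 h (41.3%) and 5 at 48 h (51.8%) against 0 h. There were then 4 at 48 h against 24 h (24% of all genes) and 6 at 48 h against 6 h (53.3%). With limma on log2(TPM + 1) or log2(TPM + 0.1) 0 were called at 24 h against 0 h (18.9% of all genes in both). With limma and no filter there were 0 at 24 h (9.59% of all genes) and 0 at 48 h (17.6%) against 0 h. That fit called 1 at 48 h against 6 h (18.2% of all genes) and 1 for any difference (16.1%). With DESeq2 1 was called at 24 h against 12 h (15.5% of all genes). Counts in place of TPM gave a 48 h minus 0 h difference of 8.63 percentage points for the *PSMB8* share, against 5.17 from TPM, and 5.38 against 2.60 for *PSMB9*, since a count is not divided by gene length.

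Replicates of equal number share only that number. Over all genes, the differences between replicates 1 and 2 correlated between groups by −0.0368 to 0.104, over 0.1 in 1 of 10 pairs of groups. With the replicate block the number of the 9 called against 0 h was 0 at 6 h (2.44% of all genes), 0 at 12 h (6.55%), 1 at 24 h (19.5%) and 2 at 48 h (32.1%). It was 4 at 48 h against 6 h (33.2% of all genes) and 4 for any difference (33.4%). At 48 h against 6 h *B2M* was added (0.64, edgeR adjusted p = 0.0475), as in 8 other alternatives. The heavy chain sum rose by 1.01 with the block (edgeR adjusted p = 0.00700). The block changed no other call of the 9 in those comparisons. Depth limits *HLA-C* and *HLA-F* (2 to 40 counts) and *TAP2* (98 to 403), and 2 libraries per time limit the rest.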

Other observations

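The genes of MHC class II, which present peptides from outside the cell and are normally kept to professional presenting cells, stayed near 0. *HLA-DRA* had 0 counts in 9 libraries and 2 in 24 h replicate 2, and *CD74*, the invariant chain, had 0 to 27 counts. *HLA-DPA1* had 0 counts in both libraries at 0 h, 8 and 2 counts at 24 h and 15 and 12 counts at 48 h, and did not pass the test at 48 h (adjusted p = 0.0704 from edgeR). These genes were chosen after their values were seen. The proteasome activator genes *PSME1* and *PSME2*, which interferon induces in many cells, did not pass at 48 h either (0.58, adjusted p = 0.0840, and 0.03, adjusted p = 0.944), and both were lowest in 12 h replicate 1, at 3773 and 3435 counts. Of the 42 interferon-stimulated genes, 10 did not pass at 48 h, among them *GBP1* (−0.09), *GBP3* (−0.12) and *ISG15* (0.37), also named after their values were seen.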
